A study of Homo sapiens with 6 samples.

Results

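The genes described here are 40 genes of mitotic entry, the mitotic kinesins, the spindle and cytokinesis. They were picked by symbol from the 58735 genes of a deposited FPKM table (fragments scaled to gene length and to a total per library). Each of the 40 symbols matched 1 row. The cells were TPC1, an established line from a papillary thyroid cancer, and RNA was sequenced 60 h after transfection with siRNA that silences hsa_circ_0000839, a circular RNA (the si-circ_0000839 group, 3 libraries), or with NC siRNA (the control group, 3 libraries). Both groups were grown in DMEM, and all values come from this 1 line. No value of the circular RNA was matched in the gene table, so its depletion was not checked here, and the labels do not tell whether replicates are independent cultures. The p-values therefore reflect the scatter of these 6 libraries, which may be technical.

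Entry into mitosis is driven by CDK1 bound to A-type and B-type cyclins, which CDC25 phosphatases switch on and which the anaphase-promoting complex, an ubiquitin ligase, ends by marking the cyclins for destruction. Kinesins are motor proteins that walk along or take apart microtubules, and the members listed here push spindle poles apart, move chromosomes to the spindle equator and build the midzone where the cell divides. Their genes are transcribed mainly in G2 and M phase, from promoters that often carry a cell cycle genes homology region (CHR), bound by the MuvB complex with MYBL2 and FOXM1, and CCAAT boxes, bound by NF-Y. In bulk RNA, fewer cells in G2 and M phase and less RNA per such cell cannot be told apart.

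The promoter words were looked for in the 250 bases before each RefSeq start (GRCh38.p14), on both strands, in the 35 members that the promoter table holds; AURKA, UBE2C, TPX2, RACGAP1 and FOXM1 are not among them. The word TTTGAA (CHR) was found in at least 1 promoter of 20 of the 35 members, 57.1%, against 16.1% of all 27305 genes of the table, and CCAAT in 31, 88.6%, against 37.0%. Both stood in 1 promoter for 18 members, 51.4%, against 5.79% of all genes. The E2F word GCGGGAA was found in 2 members, 5.71%, against 6.66%. A match is a description of the letters and not a shown binding site. Only these exact words were looked for, so a promoter without a word may hold another form of the element. Shown here are the last 150 bases before the start of 6 members. They are the 3 with the smallest p (UBE2S, KIF15 and HMMR), then CDK1, KIF4A and CCNB2, whose groups also do not overlap. These last 3 were not picked by rank of p, and all have both words. KIF20A and KIF2C, also without overlap and with a smaller p than CDK1 and CCNB2, are not shown. Neither has TTTGAA in its 250 bases, and KIF2C has no CCAAT either. CDC20, also without overlap and not shown, has both words. Capitals mark TTTGAA or its reverse complement TTCAAA and CCAAT or its reverse complement ATTGG, which overlap each other in the CCAATTGG of HMMR. The windows lie at chr19:55407789-55407938 (minus strand), chr3:44761644-44761793 (plus strand), chr5:163460482-163460631 (plus strand), chr10:60778328-60778477 (plus strand), chrX:70289954-70290103 (plus strand) and chr15:59104996-59105145 (plus strand), each printed 5′ to 3′ on the strand of its gene. GENCODE 29, whose positions the FPKM table uses, starts KIF15, KIF4A, CDK1 and CCNB2 inside these windows and HMMR before its window.
UBE2S: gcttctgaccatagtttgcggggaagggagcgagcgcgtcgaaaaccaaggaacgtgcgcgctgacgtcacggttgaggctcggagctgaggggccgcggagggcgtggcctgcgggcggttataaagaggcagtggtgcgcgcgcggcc
KIF15: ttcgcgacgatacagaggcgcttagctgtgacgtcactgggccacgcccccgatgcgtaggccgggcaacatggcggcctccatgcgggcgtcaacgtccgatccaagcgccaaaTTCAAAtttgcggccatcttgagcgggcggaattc
HMMR: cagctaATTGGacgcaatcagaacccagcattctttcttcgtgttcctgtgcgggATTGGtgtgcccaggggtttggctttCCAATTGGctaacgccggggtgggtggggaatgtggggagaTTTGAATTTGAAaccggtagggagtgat
CDK1: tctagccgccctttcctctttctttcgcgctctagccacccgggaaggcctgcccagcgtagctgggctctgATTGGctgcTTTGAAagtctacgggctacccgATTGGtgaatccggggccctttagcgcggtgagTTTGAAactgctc
KIF4A: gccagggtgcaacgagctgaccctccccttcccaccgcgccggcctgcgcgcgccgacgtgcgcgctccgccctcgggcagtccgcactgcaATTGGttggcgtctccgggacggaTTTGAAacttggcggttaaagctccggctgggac
CCNB2: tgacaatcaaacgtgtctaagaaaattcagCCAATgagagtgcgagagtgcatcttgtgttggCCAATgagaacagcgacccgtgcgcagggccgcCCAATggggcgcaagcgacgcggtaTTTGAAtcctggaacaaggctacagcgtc
In HMMR, TTTGAA stands as a direct repeat 28 and 22 bases before the start. The nearest TTTGAA stands 13 bases before the start in CDK1, 29 in CCNB2 and 34 in KIF4A, and the nearest CCAAT 46, 54 and 58 bases. Of 2 RefSeq starts of CDK1 the downstream one is shown, which has a further TTTGAA at 69 bases. KIF15 has TTTGAA on the other strand, 35 bases before the start, and no CCAAT, and neither word is in the stretch shown for UBE2S.

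The libraries held 18399558 to 19334633 reads, recovered from the FPKM values, and 20533 to 21088 genes above 0. Thyroid lineage genes were present (summed level of 6 genes 105 to 117 FPKM after si-circ_0000839 and 107 to 111 FPKM in NC, of which PAX8 gave most). NKX2-1 and TSHR were listed at 0 in all 6 libraries, and TG averaged 0.129 FPKM after si-circ_0000839 and 0.143 FPKM in NC. The 5 epithelial markers summed to 283 to 310.2 FPKM after si-circ_0000839 and 303 to 365 FPKM in NC, nearly all from KRT8 and KRT18, with CDH1 at 0 in all libraries. Like most members, KRT8 and KRT18 had estimates below 0 (log2 change -0.13 and -0.18, limma adjusted p = 0.597 and 0.452), and both were highest in NC replicate 2. Leukocyte markers summed to at most 0.0875 FPKM in any library, with PTPRC and CD3E at 0, and endothelial markers to at most 0.153 FPKM. Of 4 fibroblast markers LUM alone was tested, at 13.6, 15.4 and 18.4 FPKM after si-circ_0000839, against 24.7, 19.7 and 23.01 FPKM in NC (log2 change -0.49, SE 0.11, limma adjusted p = 0.108). COL1A1 stood the other way, at 0.622, 0.502 and 0.570 FPKM after si-circ_0000839, against 0.367, 0.314 and 0.428 FPKM in NC, and COL1A2 and DCN were at or near 0. The part of these marker levels in the results was not tested. Of the libraries, si-circ_0000839 replicate 1 and NC replicate 2 stood apart. In the fifth of tested genes with the lowest GC content, the median deviation from the gene mean was -0.14 on the log2 scale in si-circ_0000839 replicate 1 and -0.06 in NC replicate 2, against 0.0023 to 0.08 in the other 4 libraries. Results for the members are therefore also given without these 2 libraries and after removal of a trend on GC content and length from every library.

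Most members stood slightly lower after si-circ_0000839, and no member passed the test. Of the 40 members 39 reached the minimum mean of 1 FPKM over the 6 libraries and were tested, all but PRC1. With limma on log2(FPKM + 1), adjusted over all 10674 tested genes, 0 of the 39 had an adjusted p under 0.05, where 0.384% of all tested genes did (0.253% on the lower side), and the smallest adjusted p was 0.176 for UBE2S. At an unadjusted p under 0.05 there were 9 members, all lower, 23.1% of those tested against 6.31% of all genes on the lower side, and 0 higher, also against 6.31%. With voom on the recovered reads 1 member passed, UBE2S, where 0.796% of all genes did, and 14 had an unadjusted p under 0.05, all lower, against 6.43% of all genes. With the GC and length trend removed 1 member passed, again UBE2S, where 1.85% of all genes did, and 12 had an unadjusted p under 0.05, all lower, against 8.95%. Not all were lower once NC replicate 2 was left out. Without it 12 members had an unadjusted p under 0.05, 10 of them lower. Without si-circ_0000839 replicate 1 as well there were 10, of which 8 were lower. In both fits the others were CCNF and ESPL1, which were higher. The share of all genes at that threshold was not taken in these 2 fits. The log2 change was below 0 in 31 of the 39, 79.5% against 48.2% of all tested genes, with a median of -0.14 against 0.0057. These members were listed with earlier results of these data known, so the counts describe them and are no independent evidence of a direction.

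In 11 members all 3 si-circ_0000839 libraries lay below all 3 NC libraries, 28.2% against 7.55% of all tested genes, and in 0 members above, against 10.6%. These 11 were UBE2S, KIF15, HMMR, KIF20A, KIF4A, KIF2C, CDK1, CDC20, UBE2C, AURKA and CCNB2. The estimates ran from -0.34 for KIF15 to 0.11 for ESPL1 on the log2(FPKM + 1) scale. Adding 1 shrinks the change of low genes. With voom on the recovered reads the estimate of KIF15 was -0.62, beyond a change of 1.5-fold, and that of ASPM -0.49. On the log2(FPKM + 1) scale all 39 intervals (95%, from the limma fit) lay within a change of 1.5-fold. They lay between -0.56 and 0.29, and 9 lay wholly below 0. Leaving out 1 library at a time moved the estimate by over 1.5 times, or across 0, in 28 of the 39, in 20 of them for si-circ_0000839 replicate 1 and in 20 for NC replicate 2. The 11 that moved less were UBE2S, KIF15, HMMR, ASPM, KIF20A, KIF2C, KIF4A, CCNB1, CCNB2, AURKA and FOXM1. Without the 2 libraries that stood apart the median was -0.09 with 28 of 39 below 0, and after removal of the GC and length trend it was -0.12 with 33 of 39 below 0, where 49.2% of all genes were.

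**Figure D1:**
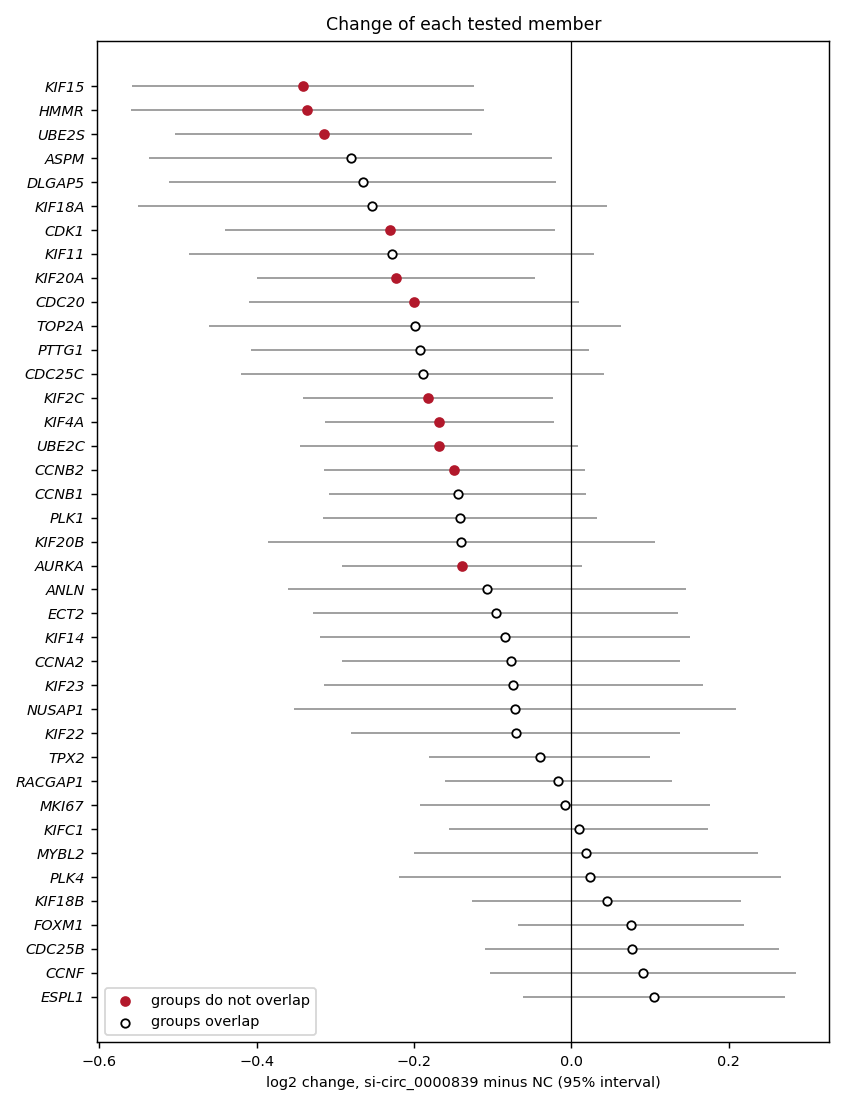
Log2 change of each tested member (x axis, si-circ_0000839 minus NC, on log2(FPKM + 1)) with its 95% interval from limma; rows are the 39 tested members, and filled points are the 11 whose groups do not overlap. The estimates run from -0.34 to 0.11, 31 of them below 0, and 9 intervals lie wholly below 0.

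The genes of anaphase ubiquitylation and separation were the most abundant role, with 4 of 5 below 0, a median log2 change of -0.19 and no call. Without NC replicate 2 that median was -0.09. UBE2S, the ubiquitin-conjugating enzyme that lengthens chains on substrates of the anaphase-promoting complex, lies at chr19:55399745-55407777 on the minus strand and was at 133, 122 and 127 FPKM in si-circ_0000839 replicates 1 to 3, against 150.2, 179 and 148 FPKM in NC replicates 1 to 3. Its groups did not overlap, and the highest library was NC replicate 2. The mean was 127 ± 5.77 FPKM after si-circ_0000839 and 159 ± 17.2 FPKM in NC (SD, n = 3 each), with a log2 change -0.32, SE 0.09, limma adjusted p = 0.176 and an interval of -0.50 to -0.13. UBE2S passed the threshold in 4 of 19 alternatives, at adjusted p = 0.0192 with the GC and length trend removed, 0.0276 after quantile normalization, 0.032 with voom and 0.0459 after rescaling to TPM (each library scaled to 1 common sum). Without si-circ_0000839 replicate 1 and NC replicate 2 its log2 change was -0.26 (adjusted p = 0.0817).

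UBE2C, which starts those chains, was at 180.4, 179 and 173 FPKM after si-circ_0000839, against 198, 219.7 and 183 FPKM in NC (log2 change -0.17, SE 0.08, limma adjusted p = 0.419). CDC20, the activator of the anaphase-promoting complex at metaphase and the most abundant member, was at 228, 211 and 215 FPKM after si-circ_0000839, against 234, 291 and 230.3 FPKM in NC (log2 change -0.20, SE 0.09, limma adjusted p = 0.415). In both genes the groups did not overlap, and NC replicate 2 was the highest library. Without that library the log2 change of CDC20 was -0.09 and that of UBE2C -0.10. PTTG1, securin, which holds separase inactive until anaphase, averaged 42.8 ± 2.66 FPKM after si-circ_0000839 and 49.3 ± 7.001 FPKM in NC (SD, n = 3 each), also with its highest value in NC replicate 2; the log2 change was -0.19, and -0.08 without that library. ESPL1, separase itself, which cuts cohesin, had the largest change above 0 of all members, at 9.40, 9.26 and 9.35 FPKM after si-circ_0000839, against 8.46, 9.41 and 8.01 FPKM in NC (log2 change 0.11, SE 0.08, limma adjusted p = 0.614). The 3 si-circ_0000839 values of ESPL1 lay close together and inside the NC range.

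Of the 7 genes of the entry kinase, its cyclins and its phosphatases, 5 were below 0 (median log2 change -0.14, and -0.09 without NC replicate 2) and none passed. CDK1, the kinase that starts mitosis, was at 13.97, 18.2 and 17.6 FPKM in si-circ_0000839 replicates 1 to 3, against 19.2, 20.2 and 19.2 FPKM in NC replicates 1 to 3. All si-circ_0000839 libraries lay below NC, replicate 1 by far the most. The mean was 16.6 ± 2.30 FPKM after si-circ_0000839 and 19.5 ± 0.611 FPKM in NC (SD, n = 3 each) (log2 change -0.23, SE 0.09, limma adjusted p = 0.349), and without si-circ_0000839 replicate 1 the log2 change was -0.12. CCNB1, the main B-type cyclin partner of CDK1, was at 110.1, 117 and 111 FPKM after si-circ_0000839, against 115, 131 and 128 FPKM in NC (log2 change -0.14, SE 0.07, limma adjusted p = 0.455). The highest si-circ_0000839 library of CCNB1 exceeded the lowest NC library, so its groups overlapped. CCNB2, the second B-type cyclin, averaged 15.5 ± 0.831 FPKM after si-circ_0000839 and 17.3 ± 1.14 FPKM in NC (SD, n = 3 each) with groups that did not overlap (log2 change -0.15, SE 0.08, limma adjusted p = 0.452). CCNA2, the A-type cyclin, was above all NC libraries in 2 of 3 si-circ_0000839 libraries, at 18.96, 24.7 and 24.6 FPKM after si-circ_0000839, against 24.3, 23.4 and 24.03 FPKM in NC (log2 change -0.08, SE 0.10, limma adjusted p = 0.794). Replicate 1 alone was below NC, and without it the log2 change was 0.04.

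The other cyclin and a CDC25 phosphatase stood on the other side of 0. CCNF, an F-box cyclin that targets proteins for destruction, was at 12.9, 12.3 and 13.2 FPKM after si-circ_0000839, against 11.8, 13.5 and 10.6 FPKM in NC (log2 change 0.09, SE 0.09, limma adjusted p = 0.720), and the groups overlapped. CDC25B, which activates CDK1 early in G2, was at 40.6, 34.8 and 37.2 FPKM after si-circ_0000839, against 33.3, 39.1 and 34.1 FPKM in NC (log2 change 0.08, SE 0.08, limma adjusted p = 0.758). CDC25C, the later-acting phosphatase, averaged 2.29 ± 0.0741 FPKM after si-circ_0000839 and 2.78 ± 0.529 FPKM in NC (SD, n = 3 each), with NC between 2.24 and 3.30 FPKM. Its log2 change was -0.19, and -0.09 without NC replicate 2. Both phosphatase genes had groups that overlapped.

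AURKA, the centrosomal kinase that activates PLK1, was at 41.8, 45.8 and 43.7 FPKM after si-circ_0000839, against 47.9, 50.5 and 46.4 FPKM in NC (log2 change -0.14, SE 0.07, limma adjusted p = 0.444), with no overlap between the groups. PLK1, which drives spindle formation and cytokinesis, was at 49.2, 45.3 and 45.6 FPKM after si-circ_0000839, against 50.4, 56.8 and 47.95 FPKM in NC (log2 change -0.14, SE 0.08, limma adjusted p = 0.501). Here si-circ_0000839 replicate 1 exceeded NC replicate 3, and the groups overlapped. Without NC replicate 2 the log2 change of PLK1 was -0.07, and the median of the 3 kinases was -0.07, against -0.14 with all libraries. PLK4, which starts centriole duplication, was at 2.73 FPKM after si-circ_0000839 against 2.65 FPKM in NC (log2 change 0.02, interval -0.22 to 0.27).

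**Figure D2:**
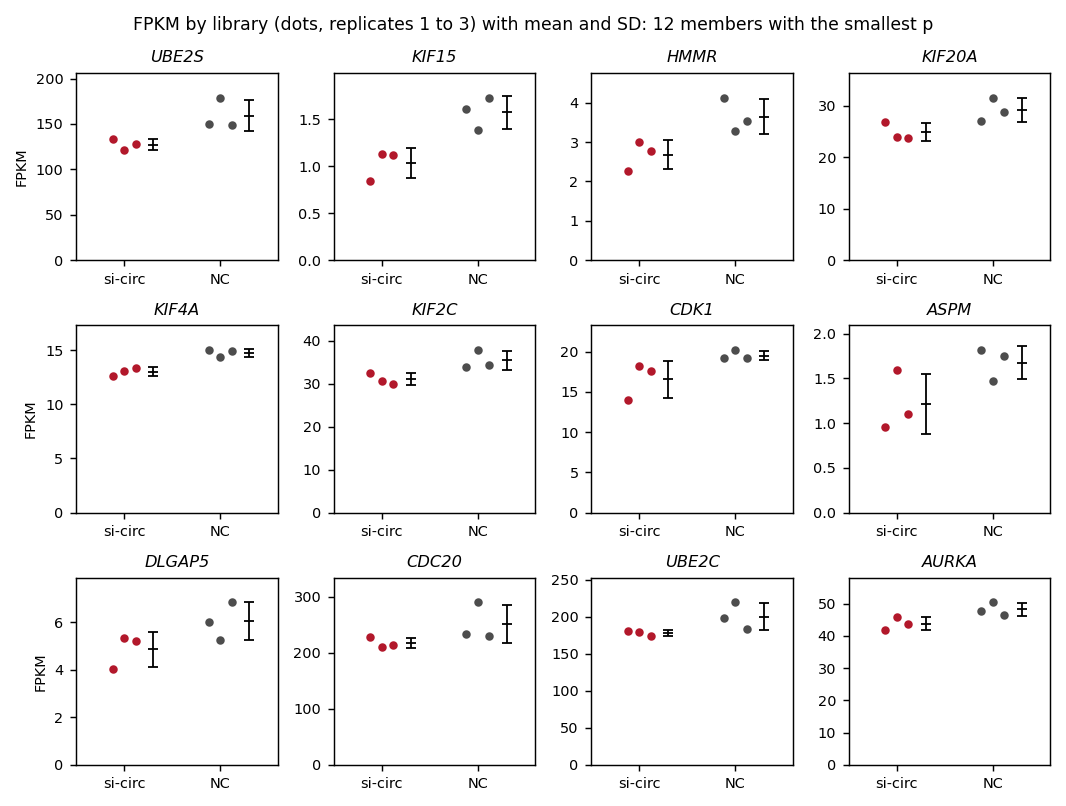
FPKM in each library (y axis, from 0; dots are replicates 1 to 3 from the left) with the mean and SD beside them, for the 12 members with the smallest p, si-circ_0000839 left and NC right in each panel. In 10 of the 12 panels the groups do not overlap, the exceptions being ASPM and DLGAP5. Picking panels by p favours groups that do not overlap. Over all tested members the share on the lower side was 28.2%, against 7.55% of all tested genes.

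The 12 kinesins had a median log2 change of -0.15, 10 of them below 0, and none passed. KIF15, a motor that holds spindle poles apart together with KIF11, had the largest change of all members. It lies at chr3:44761717-44873376 on the plus strand and was at 0.846, 1.14 and 1.12 FPKM in si-circ_0000839 replicates 1 to 3, against 1.61, 1.38 and 1.73 FPKM in NC replicates 1 to 3, on 82 to 174 reads per library. The groups did not overlap, and the lowest library was si-circ_0000839 replicate 1. Its mean was 1.03 ± 0.163 FPKM after si-circ_0000839 and 1.57 ± 0.175 FPKM in NC (SD, n = 3 each), 0.657 times the NC level (log2 change -0.34, SE 0.10, limma adjusted p = 0.203). With the GC and length trend removed the adjusted p was 0.0529. KIF11, the main motor that separates the poles, was at 7.60 FPKM after si-circ_0000839 against 9.02 FPKM in NC (log2 change -0.23, SE 0.12, limma adjusted p = 0.454) with overlapping groups, since si-circ_0000839 replicate 2 reached 9.22 FPKM and NC replicate 2 only 7.96 FPKM. Without si-circ_0000839 replicate 1 its log2 change was -0.13.

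KIF20A, which carries the chromosome passenger complex to the midzone, was at 26.9, 23.98 and 23.7 FPKM after si-circ_0000839, against 27.1, 31.6 and 28.8 FPKM in NC (log2 change -0.22, SE 0.08, limma adjusted p = 0.289). Between its highest si-circ_0000839 and its lowest NC library there was a gap of under 1 FPKM, so the separation is narrow. The highest si-circ_0000839 and the lowest NC library were also close in CDC20 (228 against 230.3 FPKM), UBE2C (180.4 against 183 FPKM) and CCNB2 (16.03 against 16.2 FPKM). Which libraries these were differed between the genes: si-circ_0000839 replicate 1 and NC replicate 1 in KIF20A, si-circ_0000839 replicate 1 and NC replicate 3 in CDC20 and UBE2C, and si-circ_0000839 replicate 2 and NC replicate 1 in CCNB2. KIF4A, a chromosome-bound motor that limits midzone length, was at 12.6, 13.1 and 13.4 FPKM after si-circ_0000839, against 15.03, 14.3 and 14.9 FPKM in NC (log2 change -0.17, SE 0.07, limma adjusted p = 0.330). Its 3 values lay within 1 FPKM of each other in either group, and the groups did not overlap, also with a gap of under 1 FPKM. KIF2C, which takes microtubules apart at kinetochores, was at 32.6, 30.8 and 29.9 FPKM after si-circ_0000839, against 33.9, 37.9 and 34.5 FPKM in NC (log2 change -0.18, SE 0.07, limma adjusted p = 0.330). KIF20A, KIF4A and KIF2C had a log2 change of -0.22, -0.17 and -0.17 without the 2 libraries that stood apart.

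KIFC1, a minus-end motor that focuses spindle poles and the most abundant kinesin here, was nearly equal in the groups, at 57.2, 51.5 and 51.8 FPKM after si-circ_0000839, against 53.02, 56.4 and 50.1 FPKM in NC (log2 change 0.0092, SE 0.07, limma adjusted p = 0.972, interval -0.15 to 0.17). KIF18B, a regulator of astral microtubule length, was at 15.04 FPKM after si-circ_0000839 against 14.6 FPKM in NC and its log2 change was 0.04. KIF22, which pushes chromosome arms towards the equator, was at 29.2 FPKM after si-circ_0000839 against 30.9 FPKM in NC (log2 change -0.07), and KIF23, the motor of the midzone complex centralspindlin, at 6.17 FPKM after si-circ_0000839 against 6.52 FPKM in NC (-0.07). KIF18A, which damps chromosome oscillation, KIF14 and KIF20B, which act in cytokinesis, averaged between 0.991 and 1.40 FPKM, with log2 changes of -0.25, -0.08 and -0.14. For these low genes the (FPKM + 1) scale compresses the change: KIF18A was at 0.724 times its NC level in FPKM, with overlapping groups. Without si-circ_0000839 replicate 1 the log2 change of KIF18A was -0.16, and that of KIF23 was 0.04.

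All 5 spindle microtubule proteins were below 0, with a median log2 change of -0.27, and none passed. Without si-circ_0000839 replicate 1 that median was -0.16. HMMR, a hyaluronan receptor that also binds spindle microtubules, lies at chr5:163460203-163491945 on the plus strand and was at 2.27, 2.997 and 2.77 FPKM in si-circ_0000839 replicates 1 to 3, against 4.13, 3.27 and 3.54 FPKM in NC replicates 1 to 3. Its groups did not overlap. The mean was 2.68 ± 0.371 FPKM after si-circ_0000839 and 3.64 ± 0.437 FPKM in NC (SD, n = 3 each), 0.736 times the NC level (log2 change -0.34, SE 0.10, limma adjusted p = 0.218). ASPM, which focuses microtubule minus ends at the poles, was at 0.957, 1.59 and 1.10 FPKM after si-circ_0000839, against 1.82, 1.47 and 1.75 FPKM in NC (log2 change -0.28, SE 0.12, limma adjusted p = 0.351). One library decided the overlap of ASPM: si-circ_0000839 replicate 2 lay above NC replicate 2, and the other si-circ_0000839 libraries below all of NC. DLGAP5, which stabilises kinetochore fibres, was at 4.03, 5.35 and 5.23 FPKM after si-circ_0000839, against 6.02, 5.27 and 6.86 FPKM in NC (log2 change -0.27, SE 0.11, limma adjusted p = 0.361), and si-circ_0000839 replicate 2 lay above NC replicate 2. Without si-circ_0000839 replicate 1 the log2 change of DLGAP5 was -0.16. TPX2, the activator of AURKA on the spindle, was at 61.9, 62.8 and 64.7 FPKM after si-circ_0000839, against 63.4, 65.03 and 66.4 FPKM in NC (log2 change -0.04, SE 0.06, limma adjusted p = 0.842). NUSAP1, which bundles microtubules, averaged 3.01 ± 0.194 FPKM after si-circ_0000839 and 3.26 ± 0.831 FPKM in NC (SD, n = 3 each) with overlapping groups.

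All 3 tested cytokinesis genes had estimates below 0, though those of RACGAP1 and ANLN were above 0 in some alternatives (median log2 change -0.10), and none passed. With 1 library left out that median ran from -0.19 without si-circ_0000839 replicate 2 to 0.0019 without si-circ_0000839 replicate 1. RACGAP1, the other subunit of centralspindlin, was at 28.6, 30.7 and 28.9 FPKM after si-circ_0000839, against 28.97, 30.2 and 30.1 FPKM in NC (log2 change -0.02, SE 0.07, limma adjusted p = 0.948, interval -0.16 to 0.13). ECT2, the exchange factor that activates RhoA at the cleavage site, was at 10.5 FPKM after si-circ_0000839 against 11.2 FPKM in NC (log2 change -0.10) and ANLN, the scaffold of the contractile ring, at 16.2 FPKM after si-circ_0000839 against 17.5 FPKM in NC (log2 change -0.11); both were lowest in si-circ_0000839 replicate 1, without which ECT2 was at -0.02 and ANLN at 0.0036. PRC1, the midzone bundling protein, was listed at 0.237, 0.202 and 0.256 FPKM in si-circ_0000839 replicates 1 to 3, against 0.233, 0.149 and 0.228 FPKM in NC replicates 1 to 3, on 15 to 26 reads, and was not tested. Of its exonic bases 58.4% lie in exons of other annotated genes, mainly AC068831.7 on the same strand, and for NUSAP1 the share is 62.2%, with AC087721.2. In the other 15 members with any shared exonic bases it is at most 15.9%, in FOXM1, beside ITFG2 on the other strand. How reads in shared exons were assigned, and whether strand was used, is not given in the sources used here, so the levels of PRC1 and NUSAP1 are uncertain.

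Both transcription factors had estimates above 0, that of MYBL2 with the other sign in some alternatives, and neither passed. MYBL2, the MuvB partner in S phase and G2, was at 124, 111 and 118 FPKM after si-circ_0000839, against 115, 135 and 102 FPKM in NC (log2 change 0.02, SE 0.10, limma adjusted p = 0.961). NC replicates 2 and 3 enclosed all si-circ_0000839 values. FOXM1, the forkhead factor that takes over in G2, was at 46.97 FPKM after si-circ_0000839 against 44.5 FPKM in NC (log2 change 0.08, interval -0.07 to 0.22). Of the general marks of proliferation, TOP2A, the topoisomerase that untangles chromosomes, was at 13.8, 19.4 and 16.4 FPKM after si-circ_0000839, against 19.7, 16.6 and 20.8 FPKM in NC (log2 change -0.20, SE 0.12, limma adjusted p = 0.535), with groups that overlapped. Without si-circ_0000839 replicate 1 its log2 change was -0.08. MKI67, the protein that coats mitotic chromosomes, averaged 13.96 ± 0.667 FPKM after si-circ_0000839 and 14.1 ± 1.42 FPKM in NC (SD, n = 3 each) (log2 change -0.0085, interval -0.19 to 0.18).

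Levels within the set spanned a wide range. Per length, CDC20, UBE2C and UBE2S were highest, with means over both groups of 235, 189 and 143 FPKM, followed by CCNB1 and MYBL2 at 119 and 117 FPKM, which do not differ beyond their spread. The median tested member was at 16.8 FPKM, against 6.44 FPKM for all tested genes. The lowest tested members were KIF18A, KIF14, KIF20B, KIF15 and ASPM, at 1.18 to 1.45 FPKM.

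How a member deviated in a library followed its GC content. Across the 39 tested members, the GC content of the longest GENCODE 29 transcript and the deviation from the gene mean had a Pearson correlation of 0.87 in si-circ_0000839 replicate 1 and 0.56 in NC replicate 2, and of -0.83 in NC replicate 3, -0.66 in NC replicate 1, -0.58 in si-circ_0000839 replicate 2 and 0.24 in si-circ_0000839 replicate 3. These are correlations across genes of 1 library, which are not independent replicates, and the deviations of a gene sum to 0 over the libraries. In the 19 members with the lowest GC content (34.2% to 44.3%), which include CDK1, TOP2A, HMMR, ASPM and the 4 lowest kinesins, si-circ_0000839 replicate 1 was the lowest library in 18. In the 20 with the highest (46.4% to 60.5%), such as UBE2S, CDC20, KIF2C and MYBL2, NC replicate 2 was the highest in 13.

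The median log2 change was -0.14 in the low-GC members and -0.10 in the high-GC members, and -0.10 and -0.12 after the trend was removed, so it was below 0 in both groups of members under either processing. With the trend removed 18 of 19 low-GC and 15 of 20 high-GC members were below 0. Among single genes, CDK1 had a log2 change of -0.15 after removal and PLK1 of -0.19, while KIF4A was at -0.19.

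**Figure D3:**
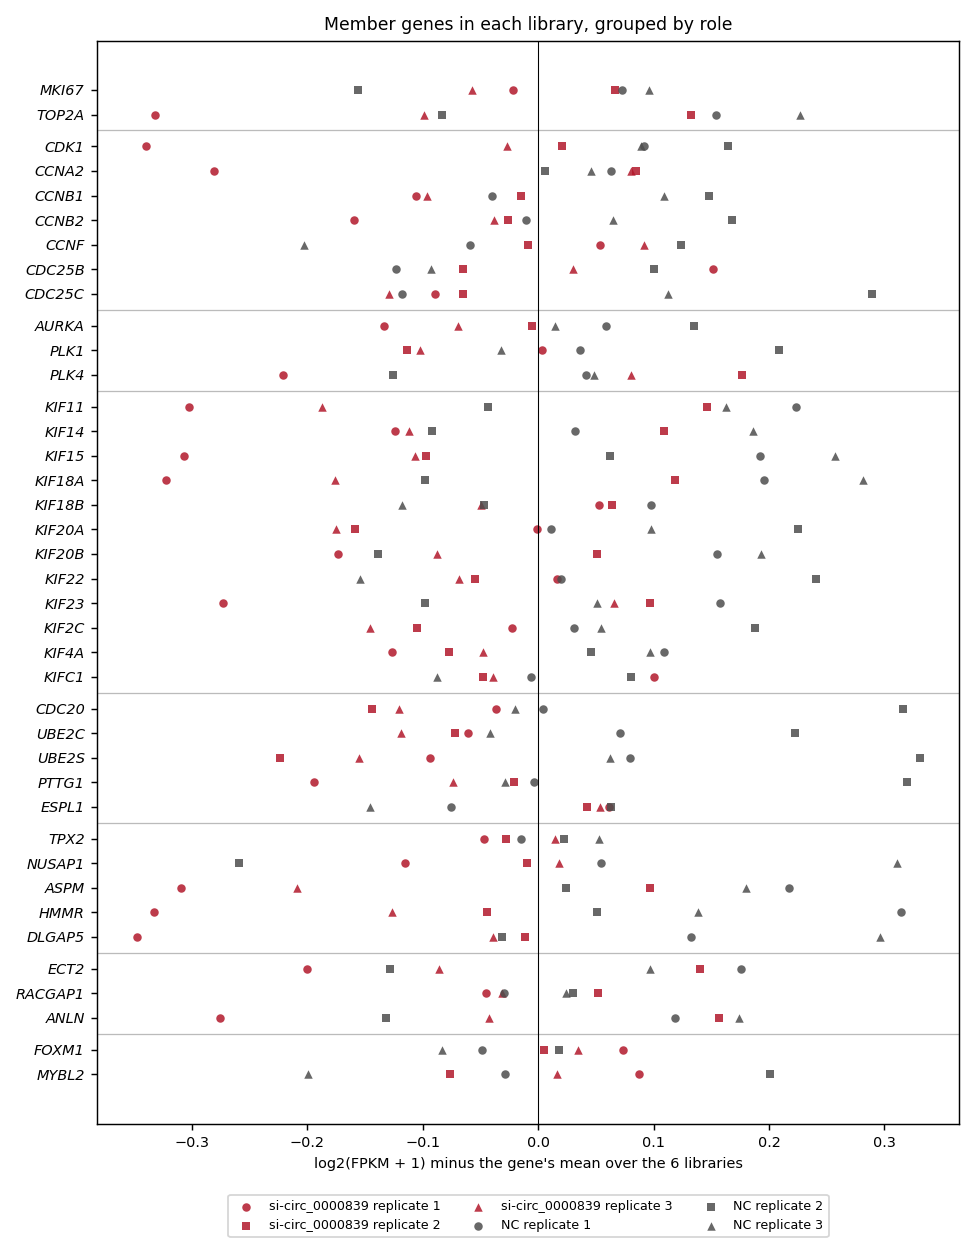
Deviation of log2(FPKM + 1) from the gene's mean over the 6 libraries (x axis) for the 39 tested members (rows, grouped by role), with 1 symbol per library. Red circles, si-circ_0000839 replicate 1, are the lowest symbol in 22 rows, and grey squares, NC replicate 2, the highest in 16.

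**Figure D4:**
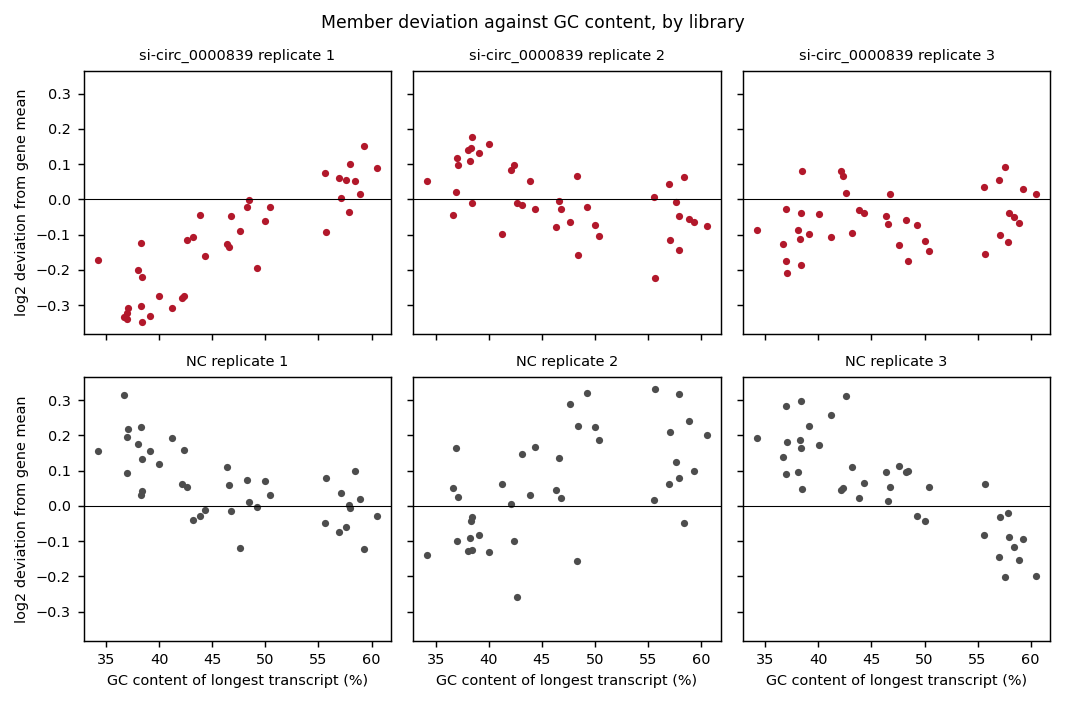
The same deviations (y axis, log2) against the GC content of the longest transcript (x axis, percent), 1 panel per library, si-circ_0000839 above and NC below; points are the 39 tested members. The points rise with GC content in si-circ_0000839 replicate 1 (Pearson correlation 0.87) and fall in NC replicate 3 (-0.83).

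Members with TTTGAA in a promoter had a median log2 change of -0.19 (17 of 19 tested members below 0), and those without it -0.08 (10 of 15 below 0). The transcripts of the first group also had a lower median GC content, 41.2% against 49.3%. With the GC and length trend removed the medians were -0.17 and -0.04, and without the 2 libraries that stood apart -0.11 and -0.03. The difference between these groups was not tested. The ranges overlapped widely: ESPL1, at 0.11, has the word 31 bases before its start, and UBE2S, at -0.32, has none in its window. For CCAAT the medians were -0.14 in the 30 tested members with it and -0.14 in the 4 without.

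Other lists of the cell cycle were read from the same fit. Of 18 tested kinetochore and spindle checkpoint genes 14 were below 0 (median log2 change -0.05), and 1, TTK, the kinase that starts the checkpoint, fell, at 2.22 FPKM after si-circ_0000839 against 3.83 FPKM in NC (log2 change -0.59, SE 0.08, limma adjusted p = 0.0158). TTK kept its direction in all 18 alternatives that tested it and passed in 13. The limma adjusted p was 0.0585 without si-circ_0000839 replicate 1, 0.0637 without si-circ_0000839 replicate 3, 0.0842 without NC replicate 3, 0.0668 without si-circ_0000839 replicate 1 and NC replicate 2, and 0.181 with no filter on low values. CENPA, the centromeric histone, stood at 14.6 FPKM after si-circ_0000839 against 17.5 FPKM in NC (0.202 as limma adjusted p). In the chromosome passenger complex, which corrects microtubule attachment, 3 of 4 were below 0, with BIRC5 at 48.5 FPKM after si-circ_0000839 against 55.4 FPKM in NC and the kinase AURKB at 56.1 FPKM after si-circ_0000839 against 59.2 FPKM in NC (adjusted p = 0.329 and 0.720 in limma). Condensin and cohesin genes had a median of -0.09 over 16, none called, with SMC4 at 5.60 FPKM after si-circ_0000839 against 6.86 FPKM in NC and SMC2 at 2.53 FPKM after si-circ_0000839 against 3.16 FPKM in NC. All si-circ_0000839 libraries lay below all NC libraries in 0 of these 16 and above in 3 (7.55% and 10.6% of all tested genes). The other cytokinesis and midbody genes had a median of -0.03 over 12, with CEP55 at 14.6 FPKM after si-circ_0000839 against 16.8 FPKM in NC and CKAP2L at 3.88 FPKM after si-circ_0000839 against 4.57 FPKM in NC, and the 16 centrosome and spindle pole genes one of -0.01, with the augmin subunits HAUS1 and HAUS2 at -0.21 and -0.21 and none called.

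The remaining lists had medians on both sides of 0, where that of all tested genes was 0.0057. The 33 genes of DNA replication and G1/S had a median of 0.0085, with 13 below 0 and none called. All si-circ_0000839 libraries lay below all NC libraries in 5 of these 33 (CCNE1, CCNE2, TYMS, RRM1 and RRM2). They lay above in 2 (CDC45 and UHRF1). Over all tested genes the shares were 7.55% and 10.6%. The cyclins CCNE1 and CCNE2 had the smallest p of this list (limma adjusted p = 0.244 and 0.270). CCNE1 was at 4.38 FPKM after si-circ_0000839 against 5.37 FPKM in NC, and CCNE2 at 1.03 FPKM after si-circ_0000839 against 1.56 FPKM in NC. Regulators of mitotic entry, a list of inhibitors such as WEE1 together with promoters of entry such as MASTL and CDC25A, had a median of -0.0031 over 15, with CDKN1A, the p21 inhibitor of CDKs, at 181 FPKM after si-circ_0000839 against 163 FPKM in NC (limma adjusted p = 0.491) and ENSA, an inhibitor of the phosphatase PP2A that favours entry, at 39.2 FPKM after si-circ_0000839 against 42.1 FPKM in NC. In the DREAM and MuvB list, which also holds E2F and NF-Y subunits, 11 of 17 were above 0 (median 0.05), with E2F5 at 1.82 FPKM after si-circ_0000839 against 1.41 FPKM in NC and NFYB at 2.43 FPKM after si-circ_0000839 against 2.94 FPKM in NC and none called. Kinesins of cargo transport were listed together with the kinesin light chains KLC1, KLC2 and KLC4. This list had a median of 0.07 over 14 genes, 3 of them below 0 (KIFC2, KIF5B and the light chain KLC4). KIFC2 was at -0.25 and KIF3C at 0.13. The median transcript GC content was 56.7% in this list, light chains included, and 44.3% in the mitotic kinesins, whose median log2 change was -0.15. The part of GC content in this contrast was not tested. No test between lists was made.

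**Figure D5:**
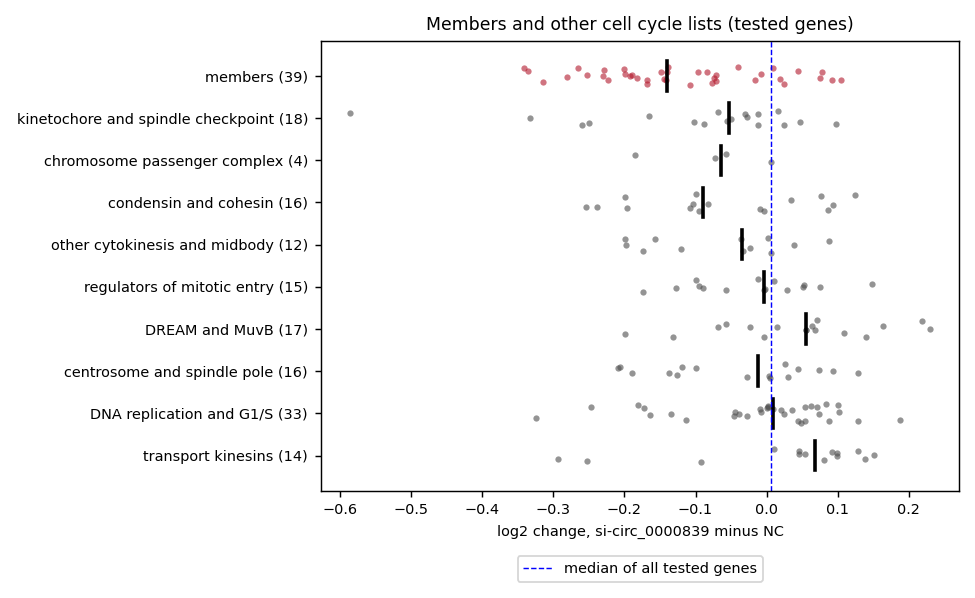
Log2 change of single genes (x axis, si-circ_0000839 minus NC) in the members and in 9 other lists of tested genes, with the number tested in brackets; black bars are list medians and the dashed line the median of all tested genes. The members have a median of -0.14, replication genes one of 0.0085, and the single point beyond -0.50 is TTK.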

How the data were processed

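RNA from 6 libraries was analysed, 3 after si-circ_0000839 and 3 after NC siRNA; groups and replicate numbers come from the sample titles. The authors deposited FPKM values per gene with gene lengths, per the file headers; the submitters' processing notes list HISAT2 2.0.5 with featureCounts 1.5.0-p3. Build, strand setting and scaling total: not given in the sources used here. Gene positions equal those of GENCODE 29 (GRCh38) for 58653 of 58735 genes. FPKM times length was a whole multiple of 1 step per library for 100% of values above 0, within 0.01, which gave the reads. The scaling total that this step gives was 0.958 times the recovered reads in NC replicate 2 and 0.971 times in si-circ_0000839 replicate 1. In the other libraries it was 1.0002 to 1.02 times. The voom alternative took the recovered reads as library size. Spreadsheet dates stood in place of 27 symbols, which were restored by gene ID. No 2 libraries were identical, and pairs within a group differed by 2.98 to 9.95 in chi-square per degree of freedom.

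The test was limma 3.58.1 (R 4.3.3, trended prior variance, two-sided) on log2(FPKM + 1) for genes averaging 1 FPKM or more, group as the only term, with Benjamini-Hochberg adjustment over all 10674 genes; it was also tested on simulated data. Members and lists were chosen with earlier results of these data known. Values in every library are given for the 12 members with the smallest p, the 4 most abundant, the 3 with the largest change above 0 and the most abundant of each role; PRC1 and CCNA2 were added after their values were seen. Of each other list the 2 genes with the smallest p are named, and any called gene. A listed marker gene is not reported here. GC content is that of the longest GENCODE 29 transcript, and the trend removed from each library was a natural spline (5 degrees of freedom for GC content, 5 for log2 length). In all, 19 alternatives were tried.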

Additional observations from a re-analysis of the deposited data

How the results depend on the processing

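The count of called members, 0, became 1 (UBE2S in each case) after quantile normalization, after rescaling to TPM, with voom and with the GC and length trend removed, and stayed at 0 in the other 15 alternatives run. The median log2 change of the members stayed below 0 in all 19, from -0.17 without si-circ_0000839 replicate 2 to -0.094 when si-circ_0000839 replicate 1 was left out together with NC replicate 2; with 1 library left out at a time it ran from -0.17 to -0.097, which was the value without si-circ_0000839 replicate 1. Between 28 and 33 of 39 members were below 0, or 23 of 30 at a minimum of 5 FPKM. All tested genes gave 41 calls, 14 higher and 27 lower, against 4 with no filter, 68 at a minimum of 5 FPKM, 63 after quantile normalization (29 higher), 85 with voom (48 higher), 198 with the GC and length trend removed (93 higher) and 20 without both libraries, and 56 after rescaling to TPM (32 higher); with 1 library left out there were 20 to 37. With the replicate number as a block (replicate block) 35 genes and 0 members passed. Same-numbered libraries did not deviate together (correlations -0.15, -0.29 and 0.15), and si-circ_0000839 replicate 1 correlated best with NC replicate 2, so the numbers were not taken as pairs. Of 732 member values under the alternatives, 728 stayed on their side of the threshold and 4 passed it (UBE2S, log2 change -0.29 to -0.33). No member passed in the main fit, so none could become weaker, and a change of sign counted as a reversal only with a pass. For 11 members near 0, none of them past the threshold, the estimate took both signs among the alternatives (MKI67, CCNA2, PLK4, KIF18B, KIF22, KIF23, KIFC1, NUSAP1, RACGAP1, ANLN and MYBL2). The planned count tests, edgeR and DESeq2, were not run on the reads recovered from FPKM; voom was. Low genes such as KIF15 and KIF18A rest on 62 to 174 reads per library, which limits their precision.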
